A study of Mus musculus with 2 samples.

Results

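Cluster 10 is a group of neutrophil-like cells among 11 cell clusters from mouse gastric tumors. Its members are the 3466 genes that the authors' deposited table lists for it, out of 18319 genes named for any cluster. Each member comes with a linear fold and a p-value. The tumors grew from injected dysplastic stem cells, which the labels call DP-DSC, in female mice of strain NuJ, and cells were captured in droplets on the inDrop platform. Of the 2 libraries, 1 came from a cystic adenocarcinoma taken 10 weeks after the cells were given and 1 from a tubular adenocarcinoma taken at 13 weeks. The clusters hold cells of the series as a whole and carry no tumor type, so the tumors could not be compared and the folds carry no error between animals. The other myeloid clusters, numbers 4 and 8, which carry macrophage and dendritic cell genes, are given beside cluster 10, with 5762 and 4844 listed genes. The listed genes make up 18.9% of all named genes in cluster 10, 31.5% in cluster 4 and 26.4% in cluster 8. NuJ is a nude strain; such mice lack a working thymus and make few T cells, but keep neutrophils, macrophages and NK cells.

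Neutrophils are short-lived granulocytes made in the bone marrow under the growth factor G-CSF. They leave the blood along gradients of chemokines that bind the receptor Cxcr2, carry ready-made granule proteins and an oxidase that makes superoxide, and on activation make cytokines such as interleukin-1 beta. In tumors they can stay longer and take up other programs of gene expression, including chemokine secretion and altered use of sugar and lipid.

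Throughout, a gene is listed when the table gives it for a cluster, and a listed gene is raised when its fold there reaches 2 or more and its p is 0.05 or less. The authors' deposited table lists folds above 1.5, so lower and falling genes have no value there. The reference of a fold is not written in the table, the cells and transcripts behind it are not given beyond the table's title, which speaks of 1000 cells each, and a fold is a difference rather than a level. Each cluster may be part of the reference of the others, so the folds of clusters 10, 4 and 8 are set side by side and not tested against each other. The clusters were drawn from the same expression values, and every count below is a description. Of all named genes, 4.90% were raised in cluster 10, 18.6% in cluster 4 and 6.36% in cluster 8.

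Cluster 10 had fewer raised genes than clusters 4 and 8, with larger folds at the median. Of its 3466 listed genes, 897 were raised, 2010 had a fold of at least 2 with a p above 0.05, 40 had a smaller fold with a p within 0.05, and 519 met neither condition. The median fold of raised genes was 11.1 in cluster 10, 3.73 in cluster 4 and 5.61 in cluster 8 of the authors' deposited table. Over all listed genes, without the filter on p, the medians lay closer together, at 3.92, 2.76 and 2.97 in the same order. The contrast among raised genes thus depends in part on which genes pass the filter on p. A fold of at least 10 was reached by 480 raised genes of cluster 10 (53.5%), against 9.44% of the raised genes in cluster 4 and 26.4% in cluster 8. By gene type, 648 of the 897 were protein coding (72.2%) and 194 were long non-coding or unclassified transcripts (21.6%). That second class made up 13.6% of raised genes in cluster 4, 15.1% in cluster 8 and 15.1% of all named genes.

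Ordering by fold and by p brought different genes to the front. First by p were the genes of the cytokine Il1b and the chemokine Ccl3, the calcium-binding protein S100a9, the transcription factor Egr1 and the G-CSF receptor Csf3r. By fold, Trpc5os came first at 427 in the authors' deposited table, before the chitinase-like Chil1 at 253 and the sodium pump subunit Atp1a4 at 232. Trpc5os and Atp1a4 belonged to 34 raised genes that carry the same deposited p to 4 significant digits. The second largest such tie in the cluster held 2 genes. All 34 were listed in cluster 10 alone, compared with 209 of the 897 raised genes (23.3%), and their folds ran from 21.2 to 427 in the authors' deposited table. Of the raised genes with a fold of at least 50, these ties made up 20 of 83. They included the T cell receptor subunit Cd3e and Il1bos, a transcript antisense to Il1b, and none of the neutrophil identity genes below. The largest tie of the same kind held 142 raised genes in cluster 4 and 54 in cluster 8.

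**Figure D1:**
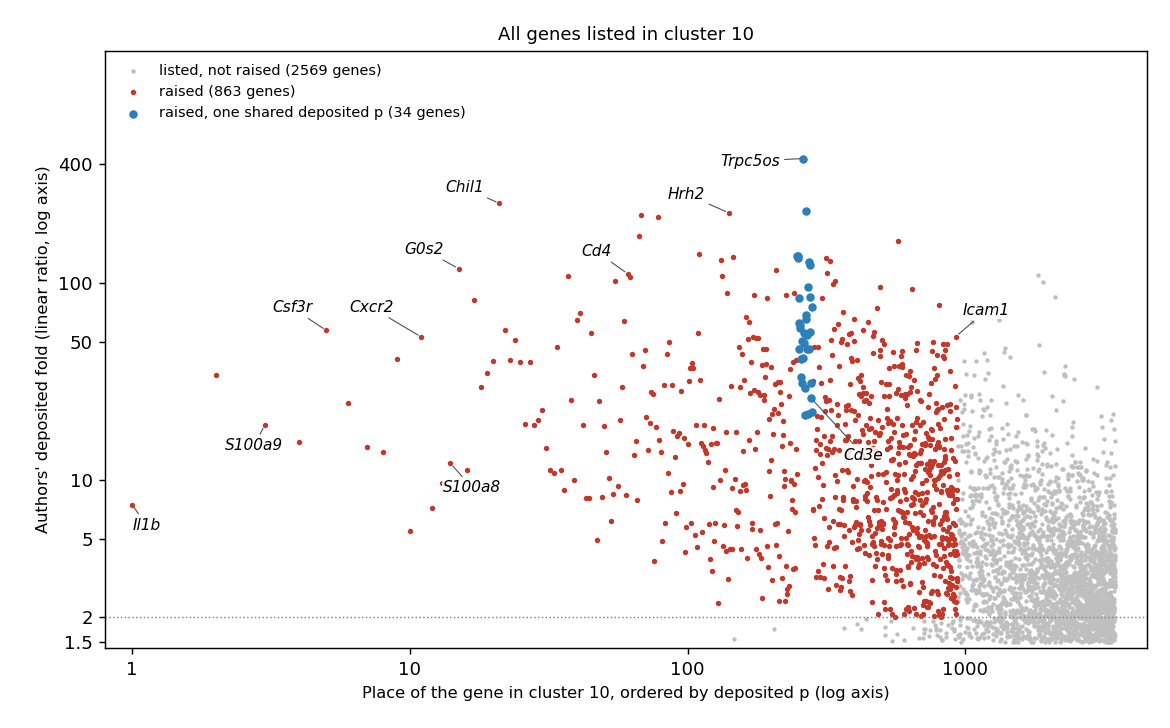
Every gene listed in cluster 10, placed by its order in deposited p (x, log axis) and its deposited fold (y, log axis, linear ratio). Red points are raised genes, grey points are listed but not raised, and blue points are the 34 raised genes that share 1 deposited p; neutrophil genes such as Csf3r and G0s2 stand among the first 15 by p, while Trpc5os and Cd3e stand in the blue column.

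The 5 genes given as markers with the cluster's label were all raised in cluster 10 and listed in neither cluster 4 nor cluster 8. They came with the name, so their folds describe the cluster and do not test the label. G0s2, an inhibitor of the fat-splitting enzyme Pnpla2, stood at a fold of 118 by the authors' deposited table. Csf3r, through which G-CSF drives neutrophil production, had 57.2, and Cxcr2, the receptor for chemokines that draw neutrophils from blood, had 53.0 in the authors' deposited table. S100a9 and its partner S100a8, which together form the protein calprotectin of the neutrophil cytosol, had 18.9 and 12.1 there. Il1b had 7.47 in the authors' deposited table, the lowest of the markers, though it came first by p. On build GRCm38, G0s2 lies on chromosome 1 from 193272161 to 193273217, Csf3r on chromosome 4 from 126024550 to 126044440, Cxcr2 on chromosome 1 from 74153989 to 74161246, S100a9 on chromosome 3 from 90692632 to 90695721 and Il1b on chromosome 2 from 129364570 to 129371139.

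A wider list of 40 neutrophil genes had 33 named in the table, of which 28 were listed and 27 raised in cluster 10 (81.8%). The same 33 genes had 11 raised in cluster 4 (33.3%) and 6 in cluster 8 (18.2%). Their median fold when listed was 14.1 in cluster 10, against 3.92 over all genes listed there, and was 3.75 in cluster 4 and 3.63 in cluster 8 of the authors' deposited table. The list was written with earlier results of these data known, and Chil1 and the histamine receptor Hrh2 were put on it for that reason, so its count is no independent evidence of the label. Without a value for the cell number, fewer cells and less RNA per cell cannot be told apart.

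Of the 27 raised genes, 18 were listed in neither cluster 4 nor cluster 8. These 27 were taken for being raised in cluster 10, and the same share over all 897 raised genes was not counted. The count therefore does not show that neutrophil genes differ in this from other raised genes. Among the 18 were the histamine-making enzyme Hdc at 39.4 and Hrh2 at 226 in the authors' deposited table. The decoy receptor Il1r2, which binds interleukin-1 without signaling, had 13.9, and Acod1, the enzyme that makes itaconate, had 7.22 in the authors' deposited table. The resistin-like Retnlg had 30.3, the MYC antagonist Mxd1 19.0 and the schlafen gene Slfn4 39.9 in the authors' deposited table. Other genes were shared with the other myeloid clusters. The integrin chain Itgam, a part of complement receptor 3, had 4.12 in cluster 10, 4.32 in cluster 4 and 5.24 in cluster 8 of the authors' deposited table. The lectin Clec4d had 7.91, 3.76 and 5.78 in the same order of the authors' deposited table.

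**Figure D2:**
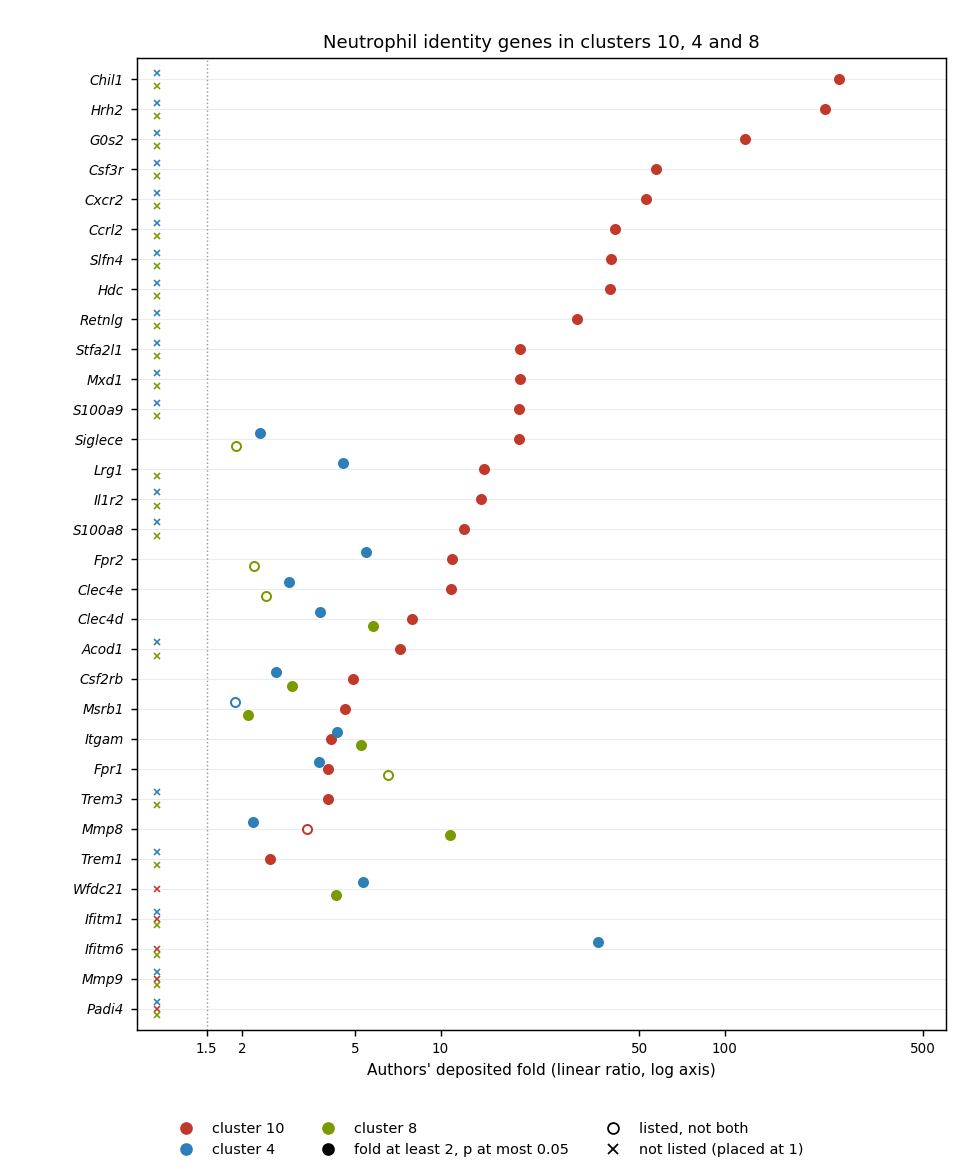
Deposited folds (x, log axis, linear ratio) of neutrophil identity genes in clusters 10 (red), 4 (blue) and 8 (green). Filled circles are raised, open circles are listed only, and crosses mark genes not listed. Most filled red points, genes taken for being raised in cluster 10, stand beside crosses for both other clusters.

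Some members lay near the thresholds or outside the cluster. The activating receptor Trem1, at 2.51, was among the lowest folds of raised identity genes in the authors' deposited table. The collagenase Mmp8 had a fold of 3.39 in cluster 10 with a p above 0.05, and 10.8 in cluster 8, where it was raised, in the authors' deposited table. Wfdc21, Ifitm1, Ifitm6, Mmp9 and Padi4 were not listed in cluster 10. Ifitm6 had 35.7 in cluster 4 of the authors' deposited table and was listed nowhere else.

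Several neutrophil genes also had large folds in cluster 2, whose raised genes include globins. Of the 33 genes 14 were listed there, but only Csf2rb and Msrb1 were raised. Mmp9 had 52.9, Trem3 15.6 and Trem1 14.1 in cluster 2 of the authors' deposited table, each with a p above 0.05. For Trem3 and Trem1 these are larger folds than in cluster 10, where the authors' deposited table gives Trem3 4.01. Il1b itself had 9.15 in cluster 2 of the authors' deposited table, also with a p above 0.05. The part of these cells in the folds of cluster 10 was not tested.

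Granule proteins are made in the bone marrow in an order, first the primary proteases, then secondary and tertiary proteins, and mature cells keep the proteins after the messages have gone. Of 20 named granule genes 9 were listed and 6 raised in cluster 10 (30.0%), against 9 raised in cluster 4 and 6 in cluster 8. The median fold of the listed genes was 3.57 in cluster 10 of the authors' deposited table. The protease inhibitor Slpi had 24.5 and Olfm4, a protein of a subset of specific granules, 22.3 in the authors' deposited table. The primary protease gene Prtn3 and the secondary granule genes Ltf, Lcn2 and Ngp were not listed in cluster 10. Ngp had 11.7 in cluster 8 and Ltf 5.75 in cluster 5 of the authors' deposited table. Lysozyme, Lyz2, was raised at 2.43 in cluster 10, below its 6.95 in cluster 4 and 5.69 in cluster 8 of the authors' deposited table. On a list of 16 cell-cycle genes, 2 were listed and 0 raised in cluster 10, where 18.9% of all named genes were listed and 4.90% raised. Clusters 4 and 8 were alike, with 0 and 1 of the 16 listed and 0 raised in each. Mitosis genes outside the cell-cycle list were raised in cluster 10, such as the kinesin Kif18a at 41.7 and the kinetochore gene Spc24 at 9.92 in the authors' deposited table. Both were chosen after their values were seen.

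Genes of the NADPH oxidase, which makes superoxide in phagosomes, numbered 2 raised of 8 in cluster 10 and 6 of 8 in each of clusters 4 and 8. At a p of at most 0.01, 1 was left in cluster 10. The membrane subunit Cybb had 4.61, 2.61 and 4.03 in clusters 10, 4 and 8 of the authors' deposited table. Its partner Cyba had 2.33 in cluster 10 with a p above 0.05, and 7.12 and 6.09 in the other clusters of the authors' deposited table. The difference between clusters was not tested.

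Transcription factors of the myeloid lineage were raised in all these clusters, with different members leading. In cluster 10, 9 of 20 named factors were raised, led by the AP-1 family member Batf at 25.3, Mxd1 and the ETS factor Ets2 at 14.1 in the authors' deposited table. Cebpb, a C/EBP factor of emergency granulocyte production, had 8.72 in cluster 10, 3.93 in cluster 4 and 2.52 in cluster 8 of the authors' deposited table. Spi1, which encodes PU.1, the factor that myeloid cells share, had 8.06, 3.01 and 5.83 there. Irf8, a factor of the monocyte and dendritic lineages, was not listed in cluster 10 and had 6.83 and 7.21 in clusters 4 and 8 of the authors' deposited table. Cebpe and Gfi1, which act in granulocyte precursors, were named for no cluster.

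A list of receptors for growth factors and cytokines also held the receptor antagonist Il1rn, which is on the cytokine list below too. Of its 22 named genes 11 were raised in cluster 10, Il1rn among them, 14 in cluster 4 and 8 in cluster 8. Besides Csf3r and Il1r2, the interleukin-18 receptor chain Il18rap had 37.9 and the interleukin-1 receptor antagonist Il1rn had 9.60 in the authors' deposited table, and neither was listed in cluster 4 or 8. The receptor chains for GM-CSF, Csf2ra and Csf2rb, had 4.49 and 4.90 in cluster 10 of the authors' deposited table. Csf2ra had 4.94 in cluster 4 and 4.83 in cluster 8 of the authors' deposited table. The macrophage growth factor receptor Csf1r was raised in cluster 10 too, at 3.30, with 3.57 and 5.12 in clusters 4 and 8 of the authors' deposited table.

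Of 26 named chemoattractant receptors, 11 were raised in cluster 10 (42.3%), 11 in cluster 4 and 8 in cluster 8. Hrh2, Cxcr2, the chemerin-binding Ccrl2 at 41.0, the hydroxy-acid receptor Hcar2 at 29.4 and the chemokine receptor Ccr1 at 4.95 in the authors' deposited table were listed in neither cluster 4 nor cluster 8. Ptafr, the receptor for platelet-activating factor, had 13.8, and Cxcr4, which holds neutrophils in the bone marrow and is known to rise as they age, had 8.05 in the authors' deposited table. Receptors for formyl peptides and complement were shared. Fpr2 had 10.9, 5.45 and 2.19 in clusters 10, 4 and 8, the last with a p above 0.05, and C5ar1 had 5.57, 5.85 and 3.34 in the authors' deposited table. Ccr2, the receptor of inflammatory monocytes, was not listed in cluster 10 and had 6.48 and 10.4 in clusters 4 and 8 of the authors' deposited table.

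Cluster 10 had 6 of 26 named chemokines raised (23.1%), and clusters 4 and 8 had 12 each (46.2%). The neutrophil attractants Cxcl3 and Cxcl2, which bind Cxcr2, had 69.8 and 14.7 in cluster 10 of the authors' deposited table. Cxcl3 was listed in neither cluster 4 nor cluster 8, and Cxcl2 had 2.21 and 1.88 there, the second under the fold threshold, in the authors' deposited table. Ccl4 and Ccl3, inflammatory chemokines that attract leukocytes, had 39.7 and 33.9 in cluster 10 of the authors' deposited table. Ccl3 was listed in neither of the other clusters, and Ccl4 had 1.84 in cluster 8, under the fold threshold, in the authors' deposited table. Ccl24, an eosinophil attractant, had 18.5, and Ccl22, made by dendritic cells and macrophages, 4.84 in cluster 10 of the authors' deposited table.

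The monocyte attractants were found in the other clusters. Ccl2, Ccl7, Ccl8 and Ccl9 were not listed in cluster 10, and had 9.92, 7.96, 8.84 and 8.39 in cluster 4 of the authors' deposited table, all raised. Another Cxcr2 ligand, Cxcl1, was not listed in cluster 10 and had 16.4 in cluster 4 and 2.999 in cluster 8 of the authors' deposited table. The interferon-induced Cxcl9 and Cxcl10, which attract T and NK cells, were not listed in cluster 10. Cxcl9 had 25.4 in cluster 4, and Cxcl10 had 4.43 there and 13.5 in cluster 8 of the authors' deposited table.

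**Figure D3:**
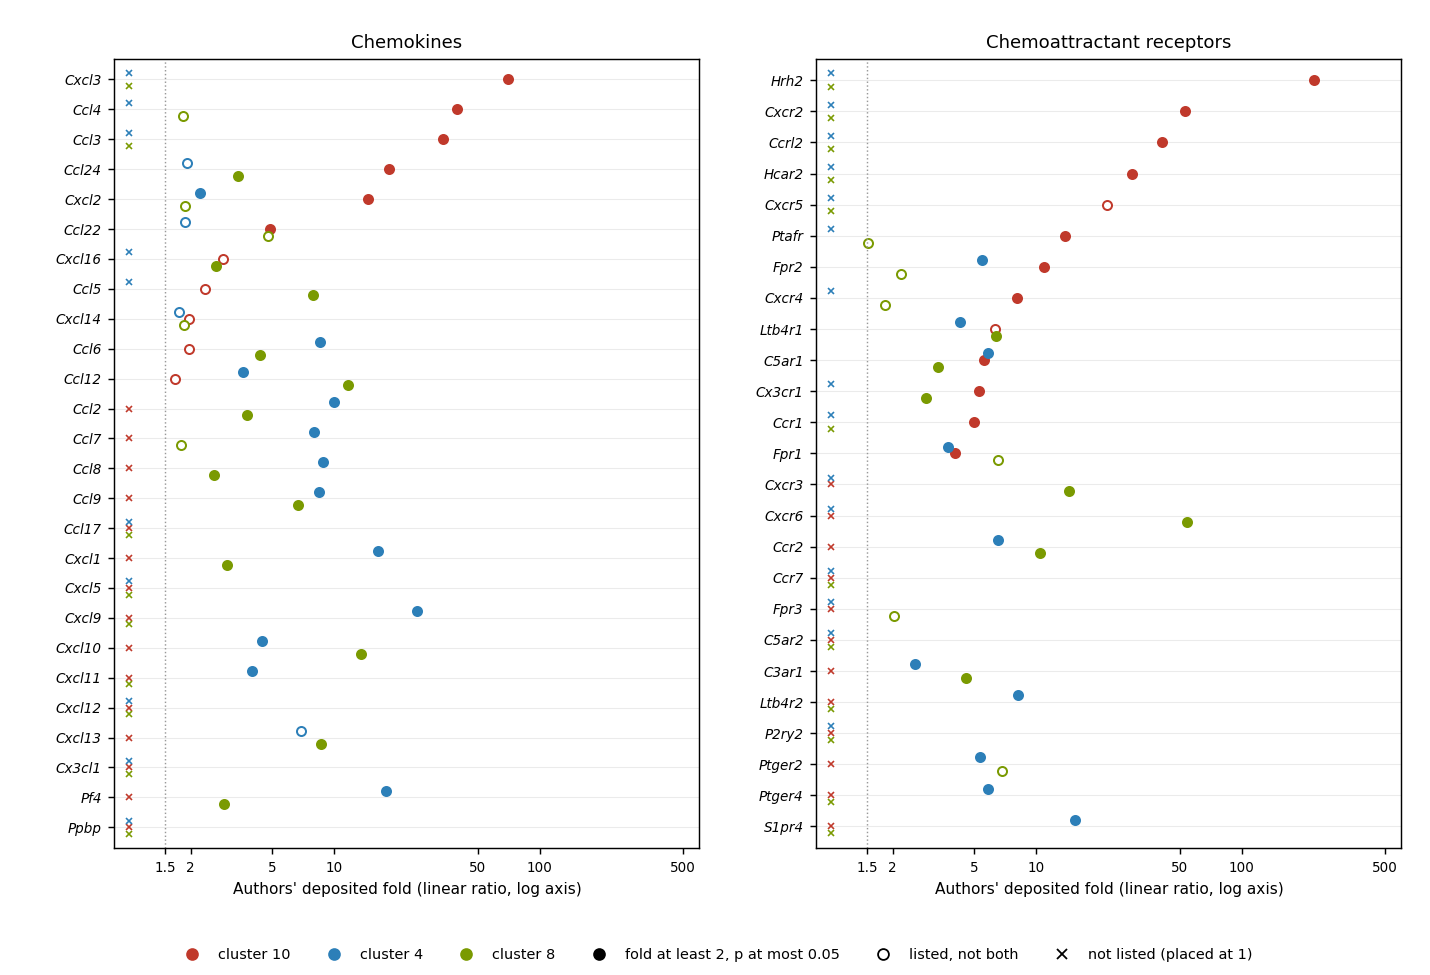
Deposited folds (x, log axis, linear ratio) of chemokines (left) and chemoattractant receptors (right) in clusters 10 (red), 4 (blue) and 8 (green). Filled circles are raised, open circles are listed only, and crosses mark genes not listed; Cxcl3, Ccl4 and Ccl3 lead in red, while Ccl2, Ccl7, Ccl8, Ccl9, Cxcl1 and Cxcl9 have crosses in red.

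Cxcl2, Cxcl3, the NF-kB inhibitor gene Nfkbia and the growth factor gene Csf1 shared a sequence feature next to their start sites, and their promoters are shown for it. NF-kB factors bind a short DNA site, searched here as the letters GGGA, any base and TTTCC on both strands in the 250 bases before each start site in RefSeq (GRCm38.p6). Of 27 raised genes on the NF-kB, chemokine and cytokine lists, 21 had a promoter in that table, and 4 of the 21 held the letters (19.0%). Among all 27025 genes with a promoter 112 held them (0.414%). The set was drawn in part from a list of genes that NF-kB induces, so its share is no test of the cluster. The share among members of the same lists raised in clusters 4 and 8 was not counted. Over all raised genes the share was 7 of 591 in cluster 10 (1.18%), 12 of 2406 in cluster 4 (0.499%) and 6 of 804 in cluster 8 (0.746%). The match is shown in capitals, 5′ to 3′ on the strand of the gene; in Nfkbia and Csf1 it lies on the opposite strand. The stretch of Cxcl2 is printed without its last 28 bases, which lie inside the annotated gene, so 222 bases are shown.
Cxcl2, chr5:90903649-90903870, plus strand: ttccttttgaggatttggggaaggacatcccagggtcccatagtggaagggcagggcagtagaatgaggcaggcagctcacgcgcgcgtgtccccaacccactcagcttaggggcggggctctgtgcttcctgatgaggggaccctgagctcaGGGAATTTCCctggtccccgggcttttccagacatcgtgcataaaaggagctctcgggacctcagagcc
Cxcl3, chr5:90785851-90786100, plus strand: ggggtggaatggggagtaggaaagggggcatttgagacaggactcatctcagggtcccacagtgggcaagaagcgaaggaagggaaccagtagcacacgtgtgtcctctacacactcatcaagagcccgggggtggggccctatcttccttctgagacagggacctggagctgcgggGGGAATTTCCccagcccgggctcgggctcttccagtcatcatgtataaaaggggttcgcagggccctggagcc
Nfkbia, chr12:55492648-55492897, minus strand: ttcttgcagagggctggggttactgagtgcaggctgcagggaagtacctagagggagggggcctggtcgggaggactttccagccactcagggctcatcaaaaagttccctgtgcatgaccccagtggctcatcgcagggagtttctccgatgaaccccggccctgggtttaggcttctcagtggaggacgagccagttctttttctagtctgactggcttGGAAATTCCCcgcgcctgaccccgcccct
Csf1, chr3:107760470-107760719, minus strand: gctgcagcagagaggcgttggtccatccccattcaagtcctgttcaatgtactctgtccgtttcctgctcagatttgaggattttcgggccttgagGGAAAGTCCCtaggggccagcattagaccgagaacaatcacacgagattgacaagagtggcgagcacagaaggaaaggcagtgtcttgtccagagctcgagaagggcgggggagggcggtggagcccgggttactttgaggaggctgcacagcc

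The matches of Cxcl2 and Cxcl3 had the same letters, starting 97 and 73 bases before the RefSeq start site. Those of Nfkbia and Csf1 started 29 and 154 bases before it. The promoters of Il1b, Ccl3, Tnf, Cxcr2, Csf3r and G0s2 held no match in this window. A site for PU.1, searched as GAGGAAGT on both strands, was found for 37 of the 591 genes in cluster 10 (6.26%), 4.32% of those in cluster 4, 6.09% of those in cluster 8 and 2.79% of all genes. The letters TTGCNNAA, searched for C/EBP factors, were found for 10.7% of the genes in cluster 10 and 10.8% of all genes. These are counts of letters and say nothing about binding.

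Cytokine genes were raised for 7 of 24 named genes in cluster 10 (29.2%), 7 in cluster 4 and 1 in cluster 8. Il23a, the subunit that marks interleukin-23, had 107, and Csf1, the growth factor for macrophages, 34.01 in the authors' deposited table. Tnfsf14 had 24.1, Tnf 17.3 and Il15 9.93 in cluster 10 of the authors' deposited table. None of these genes was raised in cluster 4 or 8. Il1a had 14.4 in cluster 10 with a p above 0.05 in the authors' deposited table. The raised cytokines of cluster 4 were others, among them Il6 at 8.0003, Osm at 10.2 and Tnfsf13b at 8.20 in the authors' deposited table.

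The interleukin-1 family was represented by ligands and by inhibitors together. Il1b, the related cytokine Il1f9 (interleukin-36 gamma) at 29.7 in the authors' deposited table, the antagonist Il1rn and the decoy Il1r2 were all raised in cluster 10 and listed in neither cluster 4 nor cluster 8. Il1rap, the shared signaling chain, had 7.14 in cluster 10 and 8.58 in cluster 4 of the authors' deposited table. Inflammasomes, the complexes that process interleukin-1 beta, had 2 of 14 named genes raised in cluster 10. These were the sensor Nlrp3 at 20.2 and Mefv, which encodes pyrin, at 52.2 in the authors' deposited table. The adaptor Pycard and the protease Casp1 were not listed in cluster 10 and had 10.5 and 8.77 in cluster 4 of the authors' deposited table.

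A list of NF-kB factors, genes that act on its signal, genes it induces and feedback genes had 29 named. Of these, 14 were raised in cluster 10 (48.3%), against 11 in cluster 4 and 7 in cluster 8. All 14 had a larger fold in cluster 10 than in cluster 4 or 8, but they were taken for being raised in cluster 10. The adhesion molecule Icam1 had the largest at 53.3 in the authors' deposited table, with a p close to the threshold; it was no longer counted at a p of at most 0.01. Nfkbia, which holds NF-kB in the cytoplasm, had 14.5 in cluster 10, 2.59 in cluster 4 and 2.30 in cluster 8 of the authors' deposited table. The nuclear regulators Nfkbid and Nfkbiz had 10.7 and 8.03, and Zfp36 and Zc3h12a, which destroy cytokine messages, 11.2 and 13.3 in cluster 10 of the authors' deposited table. Tnfaip3, an enzyme that ends TNF signaling, had 5.94 in the authors' deposited table. The factors themselves did not move alike. Nfkb1 had 3.17 and Rel 4.43 in cluster 10 with p above 0.05 in the authors' deposited table, while Rela, Relb and Nfkb2 were not listed there. Rel had 10.1 in cluster 8 of the authors' deposited table. On this list, 3 genes were raised in cluster 4 or 8 and not listed in cluster 10. They were Nfkbie at 16.9 in cluster 8, and Tnip3 at 9.10 and Traf1 at 6.16 in cluster 4.

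Immediate-early genes, which respond within a short time to stimulation and also to tissue handling, numbered 22 listed and 15 raised of 27 in cluster 10 (55.6%), against 9 raised in each of clusters 4 and 8 (33.3%). The phosphatase gene Dusp2 had 55.4, the growth regulator Btg2 19.4 and Egr1 15.6 in the authors' deposited table, and none of these was listed in cluster 4 or 8. Fos had 1.70 in cluster 10 with a p above 0.05, and was raised at 2.64 and 2.46 in clusters 4 and 8 of the authors' deposited table. Egr2 had 64.4 in cluster 4 of the authors' deposited table and was not listed in cluster 10. The nuclear receptor Nr4a1 was raised at 2.83 in cluster 10, below its 5.61 in cluster 8 of the authors' deposited table. The part of cell dissociation in these folds was not tested.

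**Figure D4:**
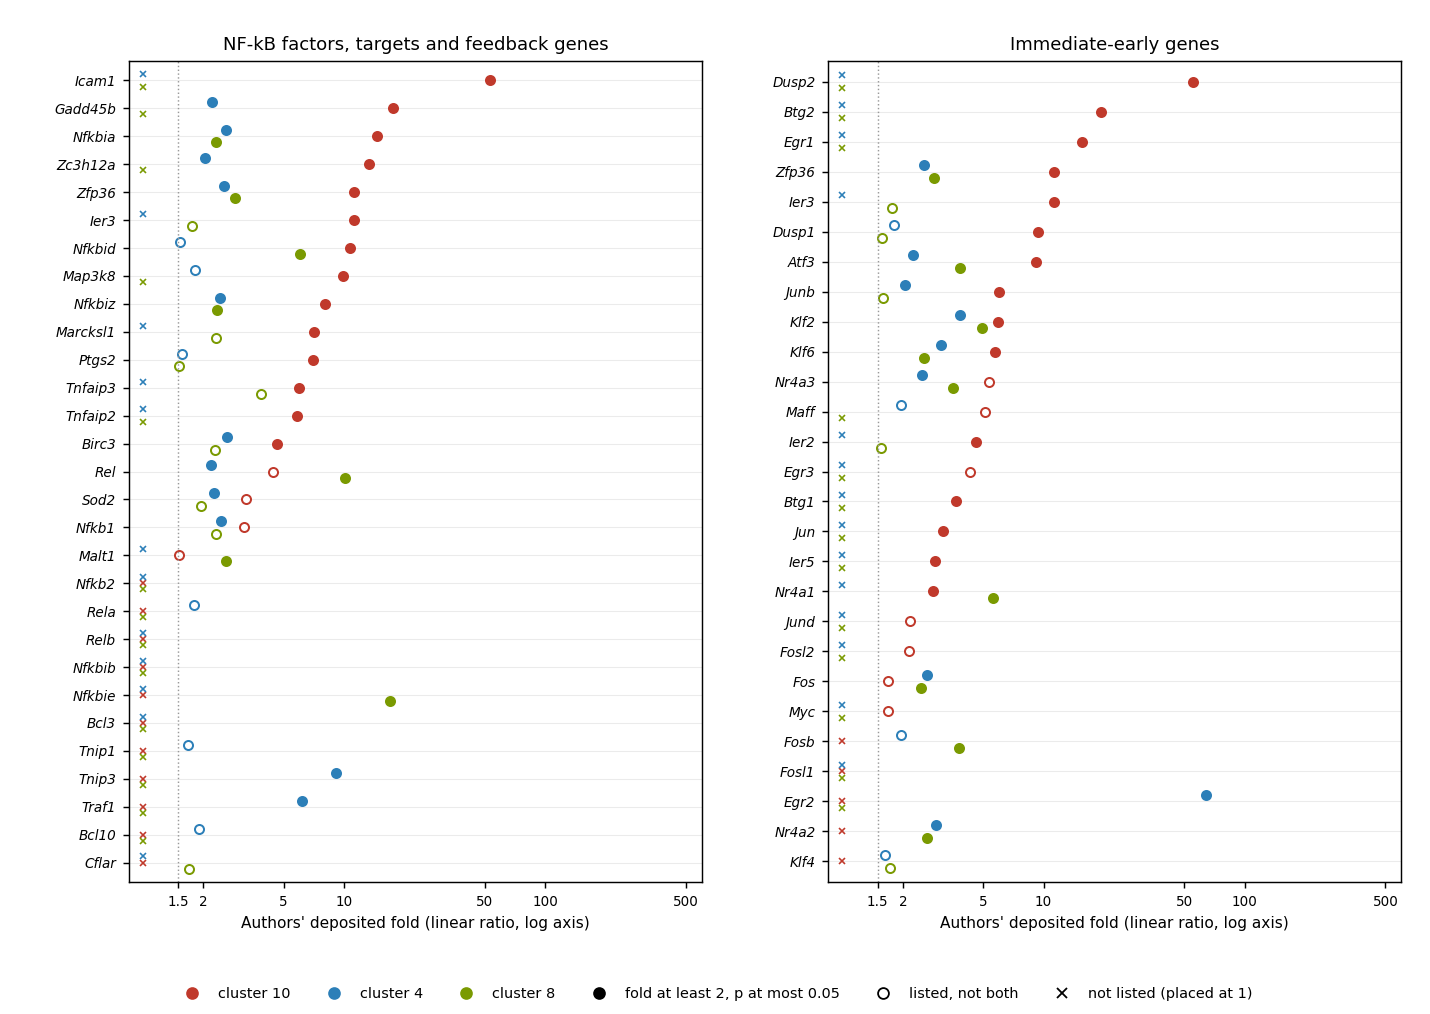
Deposited folds (x, log axis, linear ratio) of 29 NF-kB and feedback genes (left) and 27 immediate-early genes (right) in clusters 10 (red), 4 (blue) and 8 (green). Filled circles are raised, open circles are listed only, and crosses mark genes not listed. On the left, the 14 filled red points, genes taken for being raised in cluster 10, lie to the right of every blue and green point of the same gene. Nfkbie, Tnip3 and Traf1 have crosses in red.

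Sensors of microbes were raised for 8 of 28 named genes in cluster 10, 22 in cluster 4 and 14 in cluster 8. Cd14, which passes bacterial lipopolysaccharide to Tlr4, had 8.70 in cluster 10 and 3.44 and 2.38 in clusters 4 and 8 of the authors' deposited table. Irak3, an inhibitor of Toll-like receptor signaling, had 28.6 and the lectin Clec4e, which senses a mycobacterial glycolipid, 10.8 in cluster 10 of the authors' deposited table. Tlr4 had 7.90 with a p above 0.05, and Tlr2 was not listed, against 17.99 in cluster 4, in the authors' deposited table. The scavenger receptors Msr1, Marco and Cd36 were not listed in cluster 10 and were raised in cluster 4.

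Receptors that restrain or trigger phagocytes had 10 of 21 members raised in cluster 10, 17 in cluster 4 and 14 in cluster 8. Siglece, an inhibitory receptor for sialic acid, had 18.9, 2.32 and 1.90 in clusters 10, 4 and 8, the last with a p above 0.05, in the authors' deposited table. The signaling adaptors Tyrobp and Fcer1g had 4.46 and 3.51 in cluster 10, below the 5.21 and 6.60 of cluster 4, in the authors' deposited table. The high-affinity antibody receptor Fcgr1, a macrophage gene, was not listed in cluster 10. Sirpb1b and Sirpb1c, and likewise Lilr4b and Lilrb4a, are near-identical copies whose reads the authors' counting may have divided, so their folds are uncertain.

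Adhesion and migration genes had 10 of 24 members raised in cluster 10, 12 in cluster 4 and 14 in cluster 8; at a p of at most 0.01 there were 5 in cluster 10. Selplg, the ligand by which leukocytes roll on selectins, had 20.4 in cluster 10, 2.56 in cluster 4 and 2.16 in cluster 8 of the authors' deposited table. The urokinase receptor Plaur had 5.55 in cluster 10 and 1.97 in cluster 4, the second under the fold threshold, in the authors' deposited table. Itgb2, the partner chain of Itgam, was not listed in cluster 10 and had 6.66 and 9.93 in clusters 4 and 8 of the authors' deposited table.

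Genes described in tumor neutrophils had 13 of 25 named members raised in cluster 10 (52.0%), 10 in cluster 4 and 8 in cluster 8. Besides the chemokines, these included Arg2, a mitochondrial arginase, at 30.2, and Cd274, which encodes the checkpoint ligand PD-L1, at 19.1 in the authors' deposited table. Cd274 had 2.74 in cluster 4 of the authors' deposited table and was not listed in cluster 8. Tnfrsf23, a decoy receptor for the death ligand TRAIL, and its relative Tnfrsf26 had 5.19 and 27.1, and Ptgs2, the enzyme that starts prostaglandin synthesis, 7.03 in cluster 10 of the authors' deposited table. Siglecf, which marks a subset of tumor neutrophils and also eosinophils, was not listed in cluster 10 and had 11.7 in cluster 8 of the authors' deposited table. Arg1 and Nos2 were not listed in cluster 10 either, and had 9.37 and 5.42 in cluster 4 of the authors' deposited table. Vegfa had 1.85 in cluster 10 with a p above 0.05 in the authors' deposited table.

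Of 24 named genes of hypoxia and glycolysis, 5 were raised in cluster 10 (20.8%), 10 in cluster 4 and 3 in cluster 8. At a p of at most 0.01, 3 were left in cluster 10. The glucose transporter Slc2a1 had 93.3, the leukocyte hexokinase Hk3 43.5 and the glycolysis-promoting kinase Pfkfb3 10.0 in cluster 10 of the authors' deposited table. Hk2 had 3.66 and the oxygen-sensing hydroxylase Egln3 3.47 there. Later enzymes were not listed in cluster 10 (Aldoa, Pgk1, Pgam1, Eno1 and Pkm) or had a p above 0.05 (Gapdh at 1.70 in the authors' deposited table). Slc2a1 and Hk3 were listed in neither cluster 4 nor cluster 8.

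Lipid genes had 4 of 21 members raised in cluster 10, 8 in cluster 4 and 4 in cluster 8. G0s2 and Hilpda, which both inhibit Pnpla2 and so keep fat in droplets, had 118 and 9.93 in the authors' deposited table, while Pnpla2 itself had 5.08 with a p above 0.05. Alox5ap, needed for making leukotrienes, was not listed in cluster 10 and had 6.998 and 4.73 in clusters 4 and 8 of the authors' deposited table.

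Of 19 named survival and apoptosis genes 5 were raised in cluster 10, 8 in cluster 4 and 1 in cluster 8. Those of cluster 10 included the kinase gene Pim1 at 8.41, the death receptor Fas at 10.4 and Mcl1, a BCL-2 family protein on which neutrophils depend, at 3.66 in the authors' deposited table. Mcl1 had 2.40 in cluster 4 and 1.91 in cluster 8, the second under the fold threshold, in the authors' deposited table. Of 14 genes that answer unfolded protein, 10 were listed and 4 raised in cluster 10, against 1 raised in cluster 4 and 4 in cluster 8. They were led by the phosphatase subunit Ppp1r15a at 15.8 and the factor Ddit3 at 11.1 in the authors' deposited table. Interferon response genes had 6 of 27 raised in cluster 10, 13 in cluster 4 and 12 in cluster 8. Those of cluster 10 were led by the schlafen genes Slfn4 at 39.9 and Slfn2 at 20.7 in the authors' deposited table, whereas Ifit1, Ifit2 and Ifit3 were not listed there. On a list of 7 genes of MHC class II presentation, 3 were raised in cluster 10, 6 in cluster 4 and 5 in cluster 8. Those of cluster 10, Cd74, H2-Ab1 and H2-Aa, had folds between 3.88 and 4.29 in the authors' deposited table. The class II gene H2-Ea, outside that list and chosen after its value was seen, was raised at 12.5 in cluster 10.

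Markers of other cell types moved with cluster 10 to different degrees. Of 18 macrophage genes 14 were listed and 8 raised (44.4%), against 16 raised in cluster 4 and 17 in cluster 8. Their median fold when listed was 3.39 in cluster 10, 5.45 in cluster 4 and 5.12 in cluster 8 of the authors' deposited table. Ms4a7 at 19.0 and Aif1 at 14.3 had larger folds in cluster 10 than in clusters 4 and 8, where Ms4a7 had 1.70 and 4.27, in the authors' deposited table. C1qa and Cx3cr1 were also raised with larger folds in cluster 10, at 4.60 and 5.29. C1qa had 2.63 and 2.79 in clusters 4 and 8, and Cx3cr1 had 2.91 in cluster 8. The other 4 raised genes, Lyz2, Csf1r, Mrc1 and Apoe, had a larger fold in cluster 4 or 8. Adgre1 had 7.84 and C1qb 4.36 in cluster 10, each with a p above 0.05. Cd68, Cd163, C1qc and Trem2 were listed in cluster 10 with folds below 2, and Gpnmb, Fcgr1 and Mertk were not listed there. Of 14 monocyte genes 6 were raised in cluster 10, led by Treml4 at 40.6 in the authors' deposited table, and Ccr2, Ms4a4c, Vcan and Fn1 were not listed. Of 15 named dendritic genes 6 were raised in cluster 10, 7 in cluster 4 and 9 in cluster 8. Those of cluster 10 were Batf3 at 14.1, Itgax at 5.94, Ccl22 at 4.84, Cd74, H2-Ab1 and H2-Aa. Batf3 had 2.31 and 2.69 in clusters 4 and 8 of the authors' deposited table. Flt3, Clec9a, Xcr1, Cd209a, Zbtb46, Irf8, Ccr7, Fscn1 and Clec10a were not listed in cluster 10. The part of such cells in the folds of cluster 10 was not tested.

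Of 9 named T cell genes 2 were raised in cluster 10, 2 in cluster 4 and 3 in cluster 8. Those of cluster 10 were the co-receptor Cd4 at 111 and Cd3e at 25.9 in the authors' deposited table. Cd3e is 1 of the 34 genes with the shared p, and without those 1 gene was left. Trbc1, Lck, Cd2, Cd28, Cd8a, Il7r and Thy1 were not listed in cluster 10, and Lck had 31.9 and Cd8a 23.3 in cluster 8 of the authors' deposited table. Of 9 NK genes 3 were raised in cluster 10, 2 in cluster 4 and 4 in cluster 8. Cluster 10 held the granule protease Gzma at 21.5, the receptor Ncr1 at 17.4 and Nkg7 at 2.23 in the authors' deposited table. Nkg7 had 46.3 in cluster 8 of the authors' deposited table. The immunoglobulin chain Ighm had 16.7 in cluster 10 of the authors' deposited table, and Ms4a1, Cd79a and Cd79b were named for no cluster.

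On the lists used here, 15 of 15 named gastric epithelial genes, 11 of 11 fibroblast genes and 7 of 7 erythroid genes were not listed in cluster 10. Only 18.9% of all named genes were listed in cluster 10, so most genes of any kind were not. Clusters 4 and 8 were much alike in this, with 1 and 1 gastric, 1 and 0 fibroblast, and 0 and 0 erythroid genes listed. Outside those lists, the red cell blood group gene Rhd was raised at 86.5 and the epithelial mucin gene Muc13 at 28.0 in the authors' deposited table, both chosen after their values were seen. The part of such cells was not tested. The 4 named eosinophil genes were also unlisted in cluster 10, and all 4 were raised in cluster 8, with Siglecf highest there. Endothelial genes had 2 of 7 raised, Vwf at 21.3 and the adhesion molecule Pecam1 at 3.17 in the authors' deposited table, with Cdh5, Kdr, Tek, Cldn5 and Egfl7 unlisted in cluster 10. Of 5 named platelet genes Tubb1 alone was raised there, at 4.72 in the authors' deposited table. Of 11 named mast cell and basophil genes 2 were listed in cluster 10 and only Hdc was raised. The other, Hpgds, had 11.7 with a p above 0.05 in the authors' deposited table. Kit, Cpa3 and the mast cell proteases were not listed in cluster 10.

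**Figure D5:**
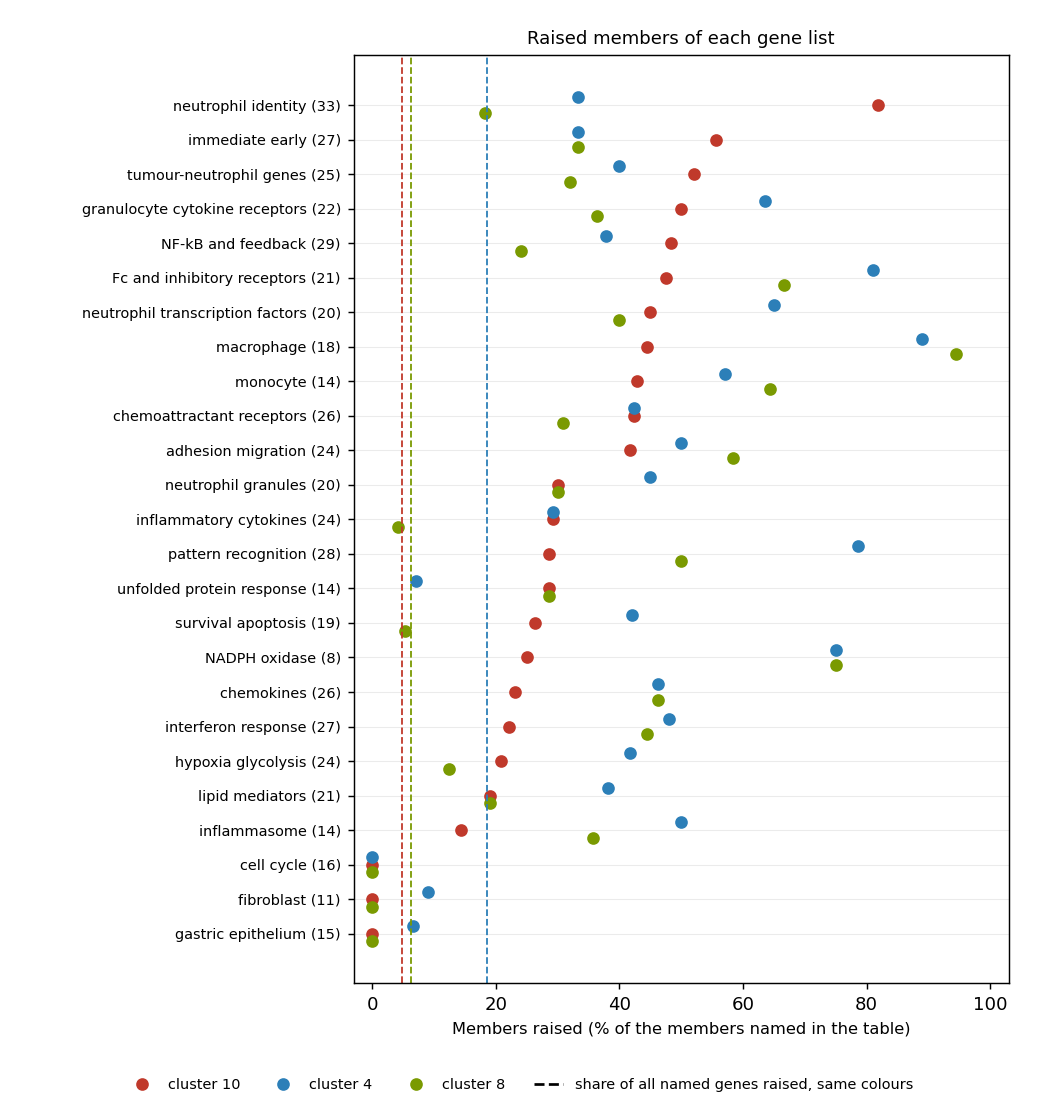
Share of each gene list's named members that were raised (x, percent) in clusters 10 (red), 4 (blue) and 8 (green), with the number of named members in brackets. Dashed lines give the share of all named genes raised in each cluster, 4.90%, 18.6% and 6.36%; the neutrophil identity list reaches 81.8% in red, and the macrophage list reaches 88.9% in blue and 94.4% in green.

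Some raised genes of cluster 10 lie close together in the genome, though genes between them were not looked for. Of 648 raised protein-coding genes, 158 fell into 71 groups with neighbors within 100 kb, and 14 groups held 3 or more genes. The same count was not made for all named genes or for the other myeloid clusters. It therefore does not show that these genes lie closer together than others. Several groups hold related genes. The chemokine genes Ccl3 and Ccl4 share a group with Wfdc17 on chromosome 11 from 83647844 to 83706268. Slfn2, Slfn1 and Slfn4 lie on chromosome 11 from 83065112 to 83190216, and Clec4n, Clec4d and Clec4e on chromosome 6 from 123229843 to 123289870. Trem1, Trem3 and Treml4 lie on chromosome 17 from 48232768 to 48275360.

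Other neighbors are unrelated genes. Hsd11b1, an enzyme of glucocorticoid metabolism, had 129.5 in the authors' deposited table and shares a group with G0s2, in a stretch of 51.6 kb. Kntc1, a mitotic checkpoint gene, had 28.3 in the authors' deposited table and lies within 100 kb of Hcar2. Rdh12 had 32.0 there and lies within 100 kb of Arg2. Insl6, a relaxin-family hormone gene, had 44.8 in the authors' deposited table and lies within 100 kb of Cd274. Il1bos had 136 in the authors' deposited table and runs antisense to Il1b; without knowledge of strand in the counting, reads of these genes cannot be told apart. Whether neighbors share reads was not tested.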

How the data were processed

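Single-cell RNA libraries were made with the TruDrop protocol after capture on the inDrop platform, per the labels' protocols, 1 library per tumor type. The submitters' processing notes name Partek, DESeq2 3.5, STAR 2.7.3a and the build mm10, with no role for any of them. How cells were filtered, clustered and screened for doublets, and how deeply each was read, is not given in the sources used here. Values come from 1 table of the authors' own comparisons with a linear fold (a ratio) and a p-value per gene and cluster, per the file headers; it holds 0 columns of per-sample values. No source names the test behind the deposited p-value; with 1 library per tumor type it cannot rest on replicates, so it served only to filter genes.

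Genes were called raised at a fold of at least 2 and a p of at most 0.05 with Python 3.11.15 and pandas 2.3.3, and members of 36 gene lists were counted; the counting was tested on simulated data. No test between clusters was run. Members and lists were chosen with earlier results of these data known. Genes were named by rule: the markers, the 25 largest folds and 25 smallest p among raised genes without ribosomal, mitochondrial and predicted ones, and list members. Not all of these are reported here. Gene positions and types are from GENCODE M21, which matched 17925 of the names (97.8%), and promoters from RefSeq (GRCm38.p6); motifs were chosen after values were seen. Alternatives were folds of 1.5 and 3, a p of at most 0.01, no p filter, leaving out predicted genes, and, added after seeing the data, leaving out genes of the largest tie in p.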

Additional observations from a re-analysis of the deposited data

How the results depend on the processing

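With no filter on p, cluster 10 had 2907 raised genes and cluster 8 had 3719, against 897 and 1166. At a p of at most 0.01, cluster 8 had 729 and cluster 10 had 609. At a fold of at least 3, cluster 4 had 2220 raised genes instead of 3402, and 7 instead of 11 raised neutrophil identity genes. Neutrophil identity genes raised in cluster 10 numbered 24 to 28 under every alternative run, against 27. Of the 35 other lists in cluster 10, the count moved by over 1.5 times for 11 with no filter on p, for 3 at a p of at most 0.01, for 1 without the tied genes (T cell genes), and for 0 under the other alternatives. At a p of at most 0.01 these were the NADPH oxidase with 1 raised gene, adhesion and migration with 5, and hypoxia and glycolysis with 3. The alternative without the tied genes was chosen after seeing the data. No paired analysis was possible because the result comes from no test and each tumor type has 1 library. With no replicates and no depth, no error can be set on any fold.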

Other observations

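Among the first 25 named genes by p in cluster 10 were several outside the lists above. Ankrd33b stood at 24.6, the melanosome-transport gene Mreg 81.3 and Mir142hg, the host transcript of a blood-cell microRNA, 35.0 in the authors' deposited table. Srgn, the core protein of granule proteoglycans, had 5.47 in cluster 10, 2.92 in cluster 4 and 2.40 in cluster 8 of the authors' deposited table. Cstdc5 had 51.3 and Cstdc4, chosen after its value was seen, 9.97 in the authors' deposited table. Both belong, with Stfa2l1 at 19.0, to the stefin-type protease inhibitors, a family of near-identical copies whose counts are uncertain.

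The genes of this paragraph were chosen after their values were seen. Entpd1, which encodes the surface enzyme CD39 that breaks down ATP, had 25.2, and Upp1, which splits uridine, 63.8 in cluster 10 of the authors' deposited table. The cystine importer Slc7a11 had 9.21 in cluster 10 and 2.15 in cluster 4, and the ferritin chain Fth1 5.74 and 2.01, in the authors' deposited table. The clock gene Ciart had 47.3 in cluster 10 of the authors' deposited table. The non-coding transcript Mirt2 had 22.2 there, and Mirt1, which the naming rule took, had 109 in the authors' deposited table. Socs3, a brake on cytokine signaling, had 6.99, and the repressor Bcl6 6.03 in cluster 10 of the authors' deposited table.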
